A study of Mus musculus with 15 samples.

Results

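The genes described here encode the enzymes that load amino acids onto transfer RNAs (tRNAs), and 2 proteins that hold some of these enzymes together. They were chosen by gene symbol among the protein-coding genes of the table: the aminoacyl-tRNA synthetases of each amino acid, Eprs, Tarsl2, Aimp1 and Aimp2. This gave 40 genes of the 54532 in the table, of which 21 encode cytosolic synthetases, 17 mitochondrial synthetases and 2 scaffold proteins. A symbol ending in 2 marks the mitochondrial enzyme, apart from Aimp2, a scaffold protein, and Tarsl2, a second cytosolic threonyl enzyme. Symbol, not measured level, chose the genes, and all 40 passed the filter on low values.

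Each synthetase joins a particular amino acid to the tRNAs that read its codons, and so sets the supply of charged tRNA for translation. Mammals keep separate sets of these enzymes, all encoded in the nucleus, for the cytosol and for the mitochondrial matrix, where they serve the few respiratory chain subunits that mitochondria make themselves. Lysyl- and glycyl-tRNA synthetase are made for both compartments from a common gene each. In the cytosol, a group of synthetases sits in the multisynthetase complex around the scaffolds Aimp1, Aimp2 and Eef1e1, and the others are free. The transcription factor ATF4, which acts when amino acids are short or when the integrated stress response is switched on, is known to induce many of the cytosolic enzymes. Heart muscle depends on mitochondrial respiration, and inherited faults in several mitochondrial synthetases, AARS2 among them, cause disease of the heart in people.

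Poly-A RNA from the hearts of mouse pups was sequenced in 5 groups of 3 libraries, which the labels call independent biological replicates. Pups were injected under the skin on day 1 after birth with an adeno-associated virus of serotype 9 (AAV9), which infects heart muscle well, and hearts were taken 12 to 14 days later. In every group the troponin T promoter cTnT, active in heart muscle cells, drove the transgene. Nat10-CKO mice received green fluorescent protein (CKO_GFP), NAT10 (CKO_NAT10), NAT10G641E (CKO_G641E) or NAT10K209A (CKO_K209A), and Nat10flox/flox mice received GFP (ff_GFP). NAT10, found mainly in the nucleolus, adds acetyl groups to cytidines of RNA, tRNA included. The series title names RNA binding and acetyltransferase activity, and the labels do not say which substitution affects which. They give neither the Cre that deletes Nat10, nor the sex of the pups, nor the species of the NAT10 transgene. The comparisons ask how these mRNAs differ when Nat10 is deleted, and after each form of NAT10 is given back.

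Values are fragments per kilobase scaled to library size (FPKM) as deposited, a level per length. Between 13218352 and 15912700 reads in genes were recovered per library, and the 40 genes had between 50 and 7491 reads each in a library, with a median of 602. Tests used limma on log2(FPKM + 0.5) over 15321 genes, fold changes are log2 with their standard error (SE), and called means an adjusted p (Benjamini-Hochberg, over all genes) under 0.05. On this scale the folds of low genes are understated. Nat10 itself had 3.47, 3.43 and 3.53 FPKM in CKO_GFP hearts, against 4.14, 3.87 and 4.28 FPKM in ff_GFP hearts, a change of -0.21 ± 0.11 (adjusted p = 0.165). It was not called. The add-back hearts had 2.89, 2.05 and 2.92 FPKM (CKO_NAT10), 2.58, 2.29 and 2.20 FPKM (CKO_G641E) and 3.57, 3.24 and 3.82 FPKM (CKO_K209A). Nat10 was thus lower in the libraries labelled CKO_NAT10 (-0.36, adjusted p = 0.0262) and CKO_G641E (-0.48, adjusted p = 0.00599) than in CKO_GFP hearts, and lower than in ff_GFP hearts (-0.57, adjusted p = 0.0202, and -0.69, adjusted p = 0.0086), although both received a NAT10 transgene. No rise of Nat10 was seen with a transgene, and since the deleted exons and the transgene's species are not given, the whole-gene value does not settle whether the labels hold. Directions below are those of the libraries as labelled. On the first principal component (51% of the variance) the CKO_GFP and CKO_K209A libraries lay on one side and the others on the opposite side. On the second, CKO_GFP 1, CKO_G641E 2 and CKO_NAT10 2 stood apart from the rest of their groups, and these 3 libraries were also the highest in interferon-stimulated genes.

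The promoters of the family were searched for the C/EBP-ATF response element, a motif that ATF4 with a C/EBP partner is known to bind, because several of the cytosolic genes below are known targets of ATF4. The letters TGATGNAA were looked for on both strands in RefSeq windows of the build GRCm38.p6, from 250 bases before to 50 bases after the gene start. Windows, 31 in all, were held for 29 of the 40 genes, and a gene was counted if any of its windows had a match. Cars, Hars, Lars, Mars, Nars, Rars, Vars, Wars, Hars2 and Pars2 were among those not searched. The motif stood in the windows of 5 of 13 cytosolic genes, 0 of 2 scaffold genes and 0 of 14 mitochondrial genes, and in 3.97% of all 32851 windows. A match of each gene is shown because it carries the letters found in 5 of the 29 genes searched. Each is written 5′ to 3′ on the strand of its gene, with 10 bases on either side and the match in capitals.
Gars, chr6:55037961-55037988, plus strand, 30 bases before the start: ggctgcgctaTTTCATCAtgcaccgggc
Aars, chr8:111033841-111033868, plus strand, 9 bases after the start: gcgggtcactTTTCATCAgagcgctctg
Tars, chr15:11399656-11399683, minus strand, 15 bases before the start: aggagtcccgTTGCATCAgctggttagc
Iars, chr13:49682127-49682154, plus strand, 7 bases after the start: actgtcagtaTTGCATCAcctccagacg
Yars, chr4:129189896-129189923, plus strand, 3 bases after the start: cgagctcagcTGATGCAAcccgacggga
The other motifs searched were TCAAGGTCA of the oestrogen-related receptors and the element of the nuclear respiratory factor NRF1. They were found for 0 of the 29 genes, against 0.423% and 0.971% of all windows. A match is a description of these letters, not of binding.

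In ff_GFP hearts the cytosolic genes had the higher levels. Their group means ran from 2.88 to 30.6 FPKM with a median of 13.2 FPKM, against 1.45 to 13.3 FPKM with a median of 6.94 FPKM for the mitochondrial genes. Nars, for asparagine, led with 30.6 ± 1.10 FPKM (SD, n = 3), followed by Gars, for glycine, with 25.5 ± 1.01 FPKM. Kars, for lysine, had 22.8 ± 1.83 FPKM and Wars, for tryptophan, 19.97 ± 2.12 FPKM, so that these neighbours in the order lay within their spread of each other. The mitochondrial gene with the highest level was Iars2, for isoleucine, at 13.3 ± 0.868 FPKM. Lars2, for leucine, followed at 11.8 ± 3.38 FPKM, the widest spread of any mitochondrial gene in this group. The lowest of the 40 was Pars2, for proline, at 1.45 ± 0.215 FPKM.

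**Figure D1:**
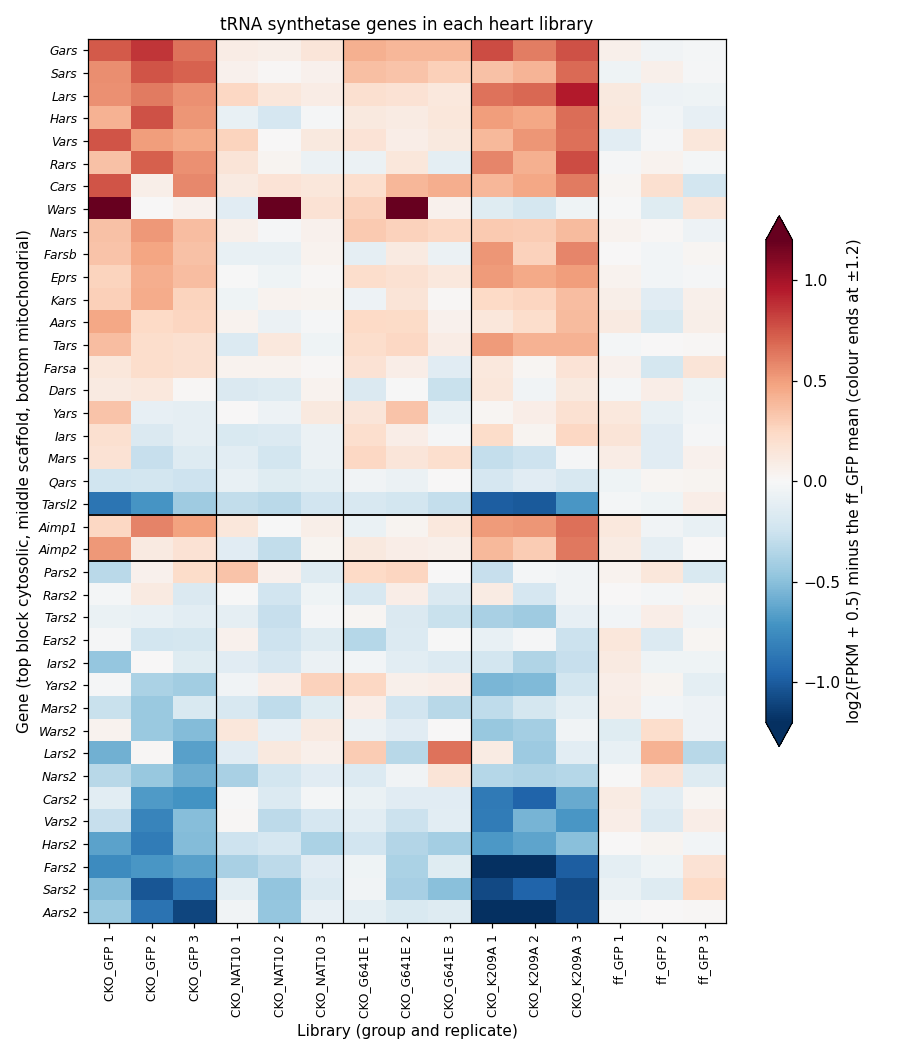
Each row is a gene, each column a heart library, and colour gives log2(FPKM + 0.5) minus the mean of the ff_GFP libraries, with colour ends at ±1.2. Most cytosolic rows (top) are red and most mitochondrial rows (bottom) blue in the CKO_GFP and CKO_K209A columns, the CKO_NAT10 and CKO_G641E columns are paler, and the Wars row is dark in 3 single libraries.

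Deletion of Nat10 went with opposite movements of the 2 sets. In CKO_GFP relative to ff_GFP hearts, 13 of 21 cytosolic synthetases rose and 2 fell, while 0 of 17 mitochondrial synthetases rose and 8 fell. Of the scaffold genes, Aimp1 rose and Aimp2 was not called. The median change was 0.36 for the cytosolic and -0.41 for the mitochondrial genes, against 0.00 for all genes tested. In all 24 of the 40 genes were called, or 60%, against 40.5% of all genes, with 19.8% called higher and 20.8% called lower. The libraries of both groups did not overlap in 26 of the 40 genes, against 46.5% of all genes. These are values of whole hearts, in which fewer cells of a type and less RNA per cell cannot be told apart.

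Among the free cytosolic enzymes, 9 of 13 rose and 1 fell. Gars, which charges glycine tRNA in cytosol and mitochondria, had 42.8, 46.4 and 40.3 FPKM in CKO_GFP hearts, against 26.6, 24.7 and 25.1 FPKM in ff_GFP hearts. Every CKO_GFP library lay above every ff_GFP library, and the change was 0.75 ± 0.07 or 1.68-fold (adjusted p = 2.71e-06), the largest rise of the family. The Gars gene lies at chr6:55038007-55079500 of GRCm38, plus strand.

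Sars, for serine, had 20.3, 23.4 and 22.6 FPKM in CKO_GFP hearts, against 13.2, 14.3 and 13.5 FPKM in ff_GFP hearts. Again the groups did not overlap, with a change of 0.67 ± 0.08 (adjusted p = 3.53e-05). Hars, for histidine, had 23.8, 30.3 and 25.8 FPKM in CKO_GFP hearts, against 19.4, 17.3 and 16.5 FPKM in ff_GFP hearts. Its groups were separate too and it rose by 0.57 ± 0.10 (adjusted p = 0.000363). Vars, for valine, had 16.9, 14.0 and 13.6 FPKM in CKO_GFP hearts, against 8.94, 9.68 and 10.8 FPKM in ff_GFP hearts, all CKO_GFP libraries being higher, and rose by 0.57 ± 0.11 (adjusted p = 0.000777).

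Nars had 39.2, 44.0 and 39.6 FPKM in CKO_GFP hearts, against 31.5, 30.9 and 29.4 FPKM in ff_GFP hearts, and rose by 0.41 ± 0.06 (adjusted p = 0.000157). Farsb, the beta subunit of the cytosolic phenylalanine enzyme, rose by 0.39 ± 0.09 (adjusted p = 0.00344), while the alpha subunit Farsa had 0.18 ± 0.10 (adjusted p = 0.173). The calls of Aars, Tars and Cars were lost when some single libraries were left out, which also leaves fewer libraries in a group. Aars, for alanine, rose by 0.32 ± 0.10 (adjusted p = 0.0198), but the call was lost without CKO_GFP 1 or without ff_GFP 2 (0.23 to 0.25). Tars, for threonine, rose by 0.26 ± 0.09 (adjusted p = 0.0278), and lost the call without CKO_GFP 1 or without any of the 3 ff_GFP libraries (0.20 to 0.27). Cars, for cysteine, rose by 0.47 ± 0.16 (adjusted p = 0.028) and lost the call without CKO_GFP 1, CKO_GFP 3, ff_GFP 1 or ff_GFP 3 (0.33 to 0.48).

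Of the 5 genes with the motif printed above, Gars, Aars and Tars rose, against 13 of all 21 cytosolic synthetases. Iars, for isoleucine, changed by -0.03 ± 0.11 (adjusted p = 0.85) and Yars, for tyrosine, by 0.05 ± 0.13 (adjusted p = 0.813), and neither was called. Of the cytosolic genes searched without a match, Eprs, Farsb, Kars and Sars rose, Dars and Farsa were not called, and Qars and Tarsl2 fell. Whether the motif goes with a rise was not tested.

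In the multisynthetase complex, 6 of 11 components rose and 1 fell. Lars, for leucine, which is also a sensor of leucine for the growth kinase mTORC1, had 19.5, 20.7 and 19.6 FPKM in CKO_GFP hearts, against 14.3, 12.6 and 12.7 FPKM in ff_GFP hearts. The groups did not overlap and the change was 0.57 ± 0.09 (adjusted p = 0.000134). Rars, for arginine, rose by 0.54 ± 0.11 (adjusted p = 0.00183), Eprs, a fusion of the glutamate and proline enzymes, by 0.36 ± 0.07 (adjusted p = 0.000764), and Kars by 0.33 ± 0.08 (adjusted p = 0.00538). Aimp1, the scaffold that binds Rars, had 8.60, 11.1 and 10.2 FPKM in CKO_GFP hearts, against 7.90, 6.94 and 6.73 FPKM in ff_GFP hearts, which did not overlap, and rose by 0.44 ± 0.10 (adjusted p = 0.00303). Aimp2, which binds Kars, had 14.0, 10.4 and 10.9 FPKM in CKO_GFP hearts, against 10.3, 8.89 and 9.63 FPKM in ff_GFP hearts. These did not overlap either, but the change of 0.27 ± 0.12 was not called (adjusted p = 0.0963). The scaffold Eef1e1, outside the 40 genes, rose by 0.80 ± 0.13 (adjusted p = 0.000227).

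Not all cytosolic genes took part. Qars, for glutamine, had 8.07, 8.17 and 8.04 FPKM in CKO_GFP hearts, against 9.27, 9.77 and 9.87 FPKM in ff_GFP hearts. All CKO_GFP libraries were lower and it fell by 0.24 on the log2 scale (SE 0.06, adjusted p = 0.00552). Tarsl2, the second cytosolic enzyme for threonine, had 3.45, 3.93 and 4.89 FPKM in CKO_GFP hearts, against 6.63, 6.48 and 7.16 FPKM in ff_GFP hearts. It fell by 0.67 on the log2 scale (SE 0.11, adjusted p = 0.000367), while Tars rose. The 6 cytosolic genes that were not called, Dars, Farsa, Iars, Mars, Wars and Yars, had changes from -0.09 to 0.42. Mars, for methionine, had 18.03, 13.1 and 14.3 FPKM in CKO_GFP hearts, against 16.96, 14.5 and 16.6 FPKM in ff_GFP hearts, and the groups overlapped.

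All 17 mitochondrial genes had negative changes, from -0.81 to -0.01, and 8 of them fell. Aars2, for alanine, had 5.88, 4.23 and 3.56 FPKM in CKO_GFP hearts, against 8.06, 8.26 and 8.31 FPKM in ff_GFP hearts. The groups did not overlap, although CKO_GFP 1 stood closest to the ff_GFP hearts, and the gene fell by 0.81 on the log2 scale (SE 0.15, adjusted p = 0.000932). Sars2, for serine, had 3.88, 2.59 and 2.97 FPKM in CKO_GFP hearts, against 5.45, 5.14 and 6.93 FPKM in ff_GFP hearts. It fell by 0.80 on the log2 scale (SE 0.16, adjusted p = 0.00127), again without overlap. Fars2, for phenylalanine, had 4.49, 4.70 and 4.89 FPKM in CKO_GFP hearts, against 7.26, 7.67 and 8.99 FPKM in ff_GFP hearts. The CKO_GFP libraries agreed closely here, and Fars2 fell by 0.70 on the log2 scale (SE 0.11, adjusted p = 0.000262).

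Hars2, for histidine, had 5.19, 4.46 and 5.70 FPKM in CKO_GFP hearts, against 8.42, 8.57 and 8.16 FPKM in ff_GFP hearts, and fell by 0.67 on the log2 scale (SE 0.09, adjusted p = 8.36e-05). Vars2 (valine) changed by -0.53, Cars2 (cysteine) by -0.51 and Nars2 (asparagine) by -0.46, and all 3 were called. The call of Cars2 was lost without CKO_GFP 2, CKO_GFP 3 or ff_GFP 1 (-0.46 to -0.40). Iars2 had 9.49, 13.3 and 11.9 FPKM in CKO_GFP hearts, against 14.3, 12.8 and 12.8 FPKM in ff_GFP hearts, and its change of -0.20 ± 0.10 was not called (adjusted p = 0.143). Lars2 had 7.52, 11.6 and 7.12 FPKM in CKO_GFP hearts, against 10.8, 15.6 and 9.03 FPKM in ff_GFP hearts, an overlap in which -0.41 ± 0.26 was not called (adjusted p = 0.231). Without CKO_GFP 2, Iars2 was at -0.30 and called. The gaps of Mars2 (methionine) and Tars2 (threonine) were free of overlap and not called.

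The scaling between libraries bears on these counts. When each library was scaled to its own recovered reads in genes, the median of all genes moved to 0.12, with 4184 genes called higher and 2271 lower, against 3032 and 3180 as deposited. On that scale 14 cytosolic synthetases rose and 1 fell (median 0.49), and 0 mitochondrial synthetases rose and 6 fell (median -0.27). Qars (-0.10), Cars2 (-0.38) and Vars2 (-0.39) then lost their calls, and Aimp2 (0.41) and Farsa (0.32) gained one. Relative to the median of all genes the cytosolic genes stayed above and the mitochondrial genes below it.

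**Figure D2:**
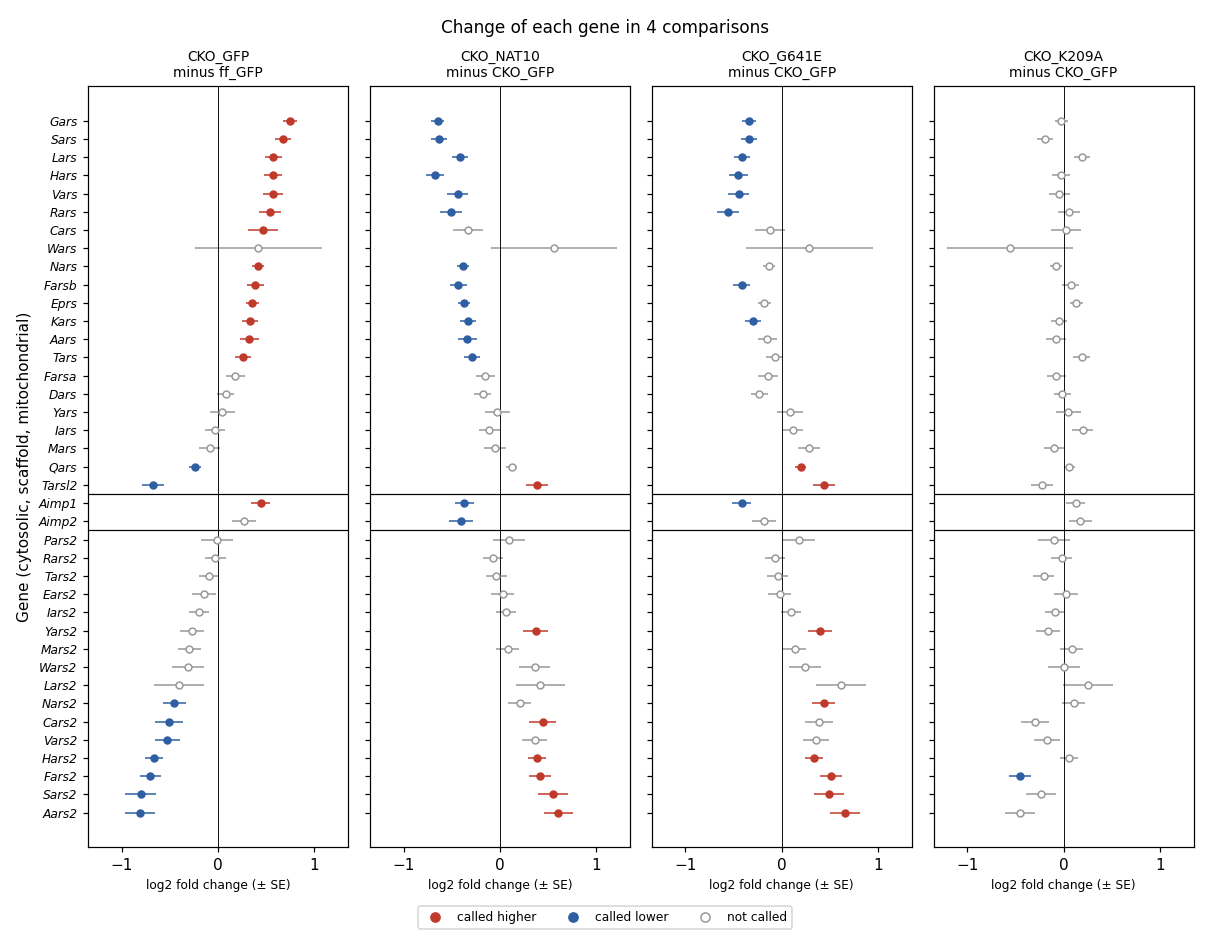
Log2 fold change of each gene, with bars of 1 SE, in 4 comparisons, filled where called, for cytosolic, scaffold and mitochondrial genes from top to bottom. Red (higher) points of the cytosolic block in CKO_GFP minus ff_GFP face blue (lower) points of the mitochondrial block, the CKO_NAT10 and CKO_G641E panels show the opposite arrangement, and 1 point, Fars2, is filled in CKO_K209A minus CKO_GFP.

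Enzymes for a common amino acid can be set side by side. Between the compartments there were 16 pairs, counting Farsa and Farsb each with Fars2. In all 16 the change of the cytosolic gene lay above that of the mitochondrial gene in CKO_GFP relative to ff_GFP hearts, and in 7 the cytosolic gene rose while the mitochondrial gene fell. The widest gaps were for serine, where Sars had 0.67 and Sars2 -0.80, and for histidine, where Hars had 0.57 and Hars2 -0.67. The difference between the 2 changes of a pair was not tested. Hars and Hars2 are neighbours on chromosome 18, at 36766530-36783205 on the minus strand and 36783008-36792562 on the plus strand, and overlap by 198 bases at their starts. In all, 14 of the 40 genes overlap another protein-coding gene, and no step that marks strand is named in the labels, so reads in such stretches cannot be assigned to a strand.

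The hearts labelled as given NAT10 showed the opposite directions. In CKO_NAT10 relative to CKO_GFP hearts, 12 cytosolic synthetases and both scaffold genes fell, and Tarsl2 rose. Of the mitochondrial synthetases, 7 rose and 0 fell. This made 22 of 40 genes, against 31.2% of all genes called, with 15.1% higher and 16.1% lower. The median change was -0.33 for the cytosolic and 0.36 for the mitochondrial genes, and 21 of the 40 genes did not overlap, against 38.9% of all genes. With only these 6 libraries in the model 11 genes were called, against 22 in the model of all libraries. Both this comparison and the one with ff_GFP hearts use the CKO_GFP libraries, so an error in these libraries enters both with opposite sign.

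Gars had 27.1, 26.7 and 28.2 FPKM in CKO_NAT10 hearts, against 42.8, 46.4 and 40.3 FPKM in CKO_GFP hearts, and fell by 0.65 on the log2 scale (SE 0.07, adjusted p = 2.54e-05). Hars had 16.6, 15.3 and 17.5 FPKM in CKO_NAT10 hearts, against 23.8, 30.3 and 25.8 FPKM in CKO_GFP hearts, and fell by 0.67 on the log2 scale (SE 0.10, adjusted p = 0.000202). Sars had 14.2, 13.8 and 14.2 FPKM in CKO_NAT10 hearts, against 20.3, 23.4 and 22.6 FPKM in CKO_GFP hearts, and fell by 0.63 on the log2 scale (SE 0.08, adjusted p = 0.000136). In all 3 genes every CKO_NAT10 library was below every CKO_GFP library, and none of the 3 calls was lost when a library was left out. Lars (-0.42), Nars (-0.38), Kars (-0.33), Rars (-0.51), Eprs (-0.37), Farsb (-0.43) and Vars (-0.44) fell as well.

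On the mitochondrial side Aars2 had 7.94, 5.82 and 7.64 FPKM in CKO_NAT10 hearts, against 5.88, 4.23 and 3.56 FPKM in CKO_GFP hearts. It rose by 0.61 ± 0.15 (adjusted p = 0.00916), but CKO_NAT10 2 lay just below CKO_GFP 1, so the groups overlapped. Sars2 had 5.30, 4.04 and 5.13 FPKM in CKO_NAT10 hearts and rose by 0.55 ± 0.16 (adjusted p = 0.018), without overlap with the CKO_GFP hearts. Hars2 rose by 0.39 ± 0.09 (adjusted p = 0.00663) and Fars2 by 0.42 ± 0.11 (adjusted p = 0.0129).

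Several of these calls were lost when single libraries were left out. Sars2 and Cars2 lost theirs without CKO_GFP 2, CKO_GFP 3, CKO_NAT10 1 or CKO_NAT10 3 (0.44 to 0.53 for Sars2, 0.34 to 0.42 for Cars2), and Fars2 without CKO_NAT10 3 (0.35). Tarsl2 lost it without CKO_GFP 1, CKO_GFP 2 or CKO_NAT10 3 (0.29 to 0.37), Tars without CKO_GFP 1, CKO_NAT10 1 or CKO_NAT10 3 (-0.28 to -0.22), and Aars without CKO_GFP 1, CKO_NAT10 2 or CKO_NAT10 3 (-0.34 to -0.27). Aimp1 lost it without CKO_GFP 2 (-0.30) and Aimp2 without CKO_GFP 1, CKO_NAT10 1 or CKO_NAT10 2 (-0.40 to -0.28). Yars2, for tyrosine (0.37, adjusted p = 0.0417), lost its call in 9 of the 15 leave-outs (0.29 to 0.39). In 15 of the 16 pairs of a common amino acid the cytosolic gene now lay below the mitochondrial one, and in 4 the cytosolic gene fell while the mitochondrial gene rose.

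Against ff_GFP hearts, 0 of 40 genes were called in CKO_NAT10 hearts by limma, with 2.47% of all genes called, 0.79% higher and 1.68% lower. At an unadjusted p under 0.05 there were 3, all lower, and limma voom on recovered reads also called 0. The median change was 0.0044 for the cytosolic and -0.14 for the mitochondrial genes, and 9 genes did not overlap, against 25.4% of all genes. Scaled to recovered reads, these medians were 0.13 and -0.02, and the calls over all genes were 202 higher and 83 lower, against 121 and 257 as deposited. Hars2, at 6.95, 7.25 and 6.34 FPKM in CKO_NAT10 hearts, against 8.42, 8.57 and 8.16 FPKM in ff_GFP hearts, had the smallest adjusted p of the family (-0.28 ± 0.09, adjusted p = 0.155).

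With NAT10G641E given back, mitochondrial genes again rose and cytosolic genes fell. In CKO_G641E relative to CKO_GFP hearts 7 mitochondrial synthetases rose and 0 fell, while 8 cytosolic synthetases fell and 2, Qars and Tarsl2, rose. Aimp1 fell by 0.42 on the log2 scale (SE 0.10, adjusted p = 0.00632). These were 18 of 40 genes, against 31.3% of all genes called, with 15.4% higher and 15.9% lower. The median change was 0.36 for the mitochondrial and -0.15 for the cytosolic genes, and 23 genes did not overlap, against 39.9% of all genes. With only these 6 libraries in the model 10 genes were called.

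Rars had 11.4, 13.3 and 11.05 FPKM in CKO_G641E hearts, against 15.5, 20.1 and 17.8 FPKM in CKO_GFP hearts, and fell by 0.56 on the log2 scale (SE 0.11, adjusted p = 0.00223). Aars2 had 7.51, 7.20 and 7.33 FPKM in CKO_G641E hearts, against 5.88, 4.23 and 3.56 FPKM in CKO_GFP hearts, and rose by 0.66 ± 0.15 (adjusted p = 0.00563). Both were free of overlap. Hars (-0.45), Vars (-0.45), Farsb (-0.41), Lars (-0.41), Sars (-0.34), Gars (-0.34) and Kars (-0.30) fell too, whereas Nars (-0.13), Eprs (-0.18), Aars (-0.15), Tars (-0.07) and Cars (-0.12) were not called. Scaled to recovered reads, Nars (-0.18), Eprs (-0.23) and Dars (-0.28), for aspartate, were called, Qars (0.15), Hars2 (0.29), Sars2 (0.45) and Yars2 (0.35) were not, and 4 mitochondrial synthetases rose.

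Leaving out a library ended the calls of Hars2 (0.25 to 0.28) and Kars (-0.25 to -0.24) when it was CKO_G641E 1 or CKO_GFP 2, of Nars2 (0.35 to 0.37) when it was CKO_G641E 3 or CKO_GFP 3, and of Qars (0.18 to 0.20) when it was CKO_G641E 1 or CKO_G641E 3. Sars2 (0.49, adjusted p = 0.0313) lost its call in 4 and Yars2 (0.40, adjusted p = 0.0307) in 5 of the 6 leave-outs of these groups. Sars2 kept it without CKO_G641E 3 or CKO_GFP 1, and Yars2 without CKO_GFP 1.

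Set directly beside NAT10, NAT10G641E gave 0 called genes of 40 by limma, with 0.0522% of all genes called, 0.0326% higher and 0.0196% lower. At an unadjusted p under 0.05 there were 7, all of them cytosolic and higher in CKO_G641E hearts, and limma voom also called 0. The libraries did not overlap in 11 genes, of which 10 were cytosolic, against 15.4% of all genes. Gars had 34.5, 33.7 and 33.8 FPKM in CKO_G641E hearts, against 27.1, 26.7 and 28.2 FPKM in CKO_NAT10 hearts, a difference of 0.31 with a 95% interval of 0.16 to 0.46 (adjusted p = 0.23). Nars had 38.1, 37.3 and 36.3 FPKM in CKO_G641E hearts, against 31.9, 30.3 and 31.7 FPKM in CKO_NAT10 hearts, a difference of 0.25 with an interval of 0.11 to 0.38 (adjusted p = 0.333). For Sars the values were 17.7, 17.5 and 16.8 FPKM in CKO_G641E hearts, against 14.2, 13.8 and 14.2 FPKM in CKO_NAT10 hearts (0.29, interval 0.11 to 0.47, adjusted p = 0.412). None of these 3 genes overlapped between the groups, and none passed the test over all genes. Of the mitochondrial genes, 0 of 17 were apart, with differences from -0.12 to 0.23.

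Relative to ff_GFP hearts, 2 of 40 genes were called in CKO_G641E hearts, against 1.79% of all genes (0.627% higher, 1.16% lower), and 11 did not overlap, against 26.9%. They were Gars (0.41 ± 0.07, adjusted p = 0.00956) and Nars (0.28 ± 0.06, adjusted p = 0.0414), both higher. The call of Nars was lost in 11 of the 15 leave-outs (0.25 to 0.30), among them each library of the 2 groups. Sars had 0.33 ± 0.08 (adjusted p = 0.0677) without overlap, and was called without CKO_GFP 1 or CKO_K209A 3 (0.33) and when scaled to recovered reads (0.42, adjusted p = 0.0327). On that scale 152 of all genes were called higher and 81 lower, against 96 and 178 as deposited.

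**Figure D3:**
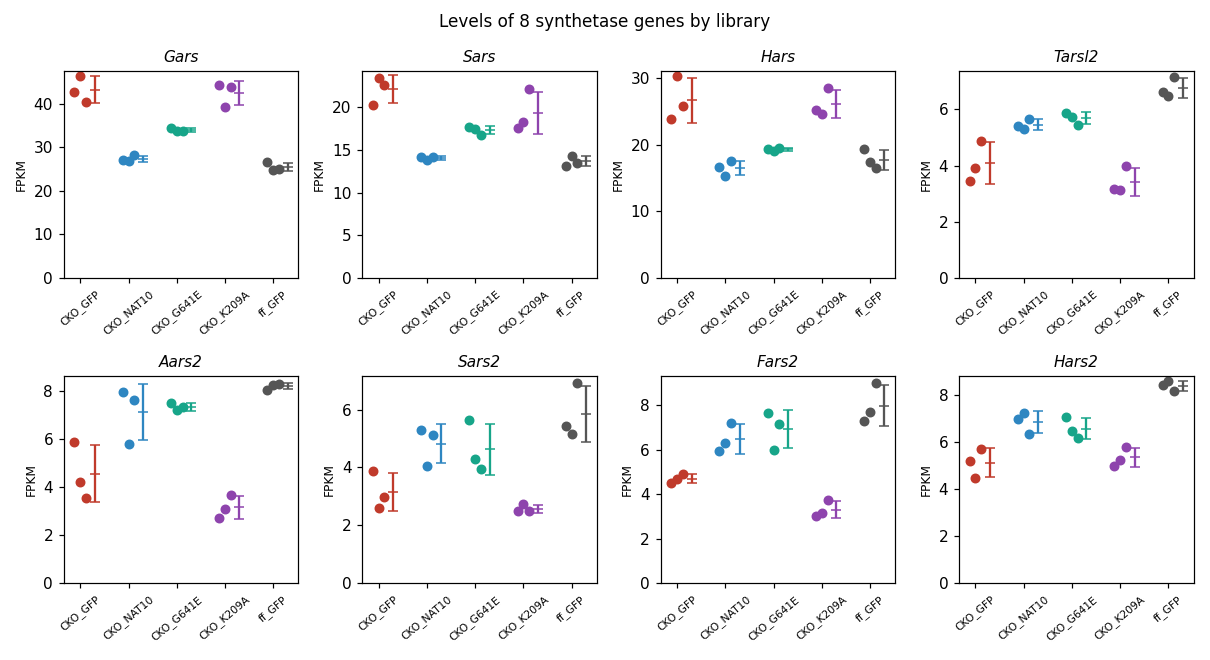
FPKM of 8 genes in each library (points), with the group mean and SD beside them, on linear axes from 0. Gars, Sars and Hars are high and Tarsl2, Aars2, Sars2, Fars2 and Hars2 low in CKO_GFP and CKO_K209A hearts, and for Gars and Sars the CKO_G641E points lie between those of CKO_NAT10 and CKO_GFP hearts.

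With NAT10K209A few differences from CKO_GFP hearts passed the test. In CKO_K209A relative to CKO_GFP hearts 1 of 40 genes was called, Fars2, against 7.93% of all genes (2.17% higher, 5.76% lower), and 6 genes did not overlap, against 23.2%. The median change was -0.02 for the cytosolic and -0.10 for the mitochondrial genes. Fars2 had 3.02, 3.14 and 3.75 FPKM in CKO_K209A hearts, against 4.49, 4.70 and 4.89 FPKM in CKO_GFP hearts, and fell by 0.45 on the log2 scale (SE 0.11, adjusted p = 0.028). The call was lost without CKO_GFP 2, CKO_GFP 3, CKO_K209A 1 or CKO_K209A 2 (-0.45 to -0.40). It was also lost when scaled to recovered reads (-0.35, adjusted p = 0.0697), a scale on which Eprs was called higher (0.24) and all genes gave 976 higher and 478 lower calls, against 333 and 882 as deposited. Gars had 44.2, 39.3 and 43.7 FPKM in CKO_K209A hearts, against 42.8, 46.4 and 40.3 FPKM in CKO_GFP hearts, an overlap with a difference of -0.02 and a 95% interval of -0.17 to 0.12. Aars2 had 2.71, 3.10 and 3.66 FPKM in CKO_K209A hearts, against 5.88, 4.23 and 3.56 FPKM in CKO_GFP hearts, a difference of -0.45 with an interval of -0.78 to -0.12 (adjusted p = 0.0922). That gene was called without CKO_GFP 3 (-0.60).

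Set beside unsubstituted NAT10, the K209A form went with a split between the compartments. In CKO_K209A relative to CKO_NAT10 hearts 12 cytosolic synthetases and both scaffold genes rose, Tarsl2 fell, and of the mitochondrial synthetases 0 rose and 8 fell. This made 23 of 40 genes, against 41.5% of all genes called, with 20.3% higher and 21.2% lower, and 26 genes did not overlap, against 54.4%. Gars had 44.2, 39.3 and 43.7 FPKM in CKO_K209A hearts, against 27.1, 26.7 and 28.2 FPKM in CKO_NAT10 hearts, and rose by 0.62 ± 0.07 (adjusted p = 1.25e-05). Aars2 had 2.71, 3.10 and 3.66 FPKM in CKO_K209A hearts, against 7.94, 5.82 and 7.64 FPKM in CKO_NAT10 hearts, and fell by 1.06 on the log2 scale (SE 0.15, adjusted p = 0.000117). Both genes were free of overlap.

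Fars2 (-0.87, adjusted p = 4.58e-05) and Sars2 (-0.79, adjusted p = 0.00143) followed among the mitochondrial genes. Hars (0.65), Lars (0.61), Rars (0.56), Farsb (0.51), Eprs (0.50), Tars (0.48), Sars (0.44), Vars (0.40), Iars (0.31), Nars (0.30) and Kars (0.28) were the other cytosolic genes that rose, with Aimp2 (0.58) and Aimp1 (0.50). Without CKO_K209A 1, CKO_K209A 3 or any CKO_NAT10 library the call of Iars was lost (0.27 to 0.34), without CKO_K209A 3 or CKO_NAT10 1 that of Kars (0.24 to 0.25), and without CKO_K209A 1 that of Hars2 (-0.33 in all libraries, -0.29 without it). Scaled to recovered reads the median of all genes moved to 0.11, with 4283 higher and 2445 lower calls against 3111 and 3252 as deposited. On that scale 15 cytosolic synthetases rose and 1 fell (median 0.44), and 0 mitochondrial synthetases rose and 7 fell (median -0.21), Hars2 (-0.21) having lost its call.

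In CKO_K209A relative to CKO_G641E hearts 9 cytosolic synthetases and both scaffold genes rose, and 2 cytosolic genes, Mars (-0.38) and Tarsl2 (-0.67), and 9 mitochondrial synthetases fell. These were 22 of 40 genes, against 40.8% of all genes called, with 19.6% higher and 21.2% lower, and 26 did not overlap, against 55.4%. Aars2 fell by 1.11 on the log2 scale (SE 0.15, adjusted p = 7.73e-05), Fars2 by 0.96 (SE 0.11, adjusted p = 1.94e-05) and Sars2 by 0.73 (SE 0.16, adjusted p = 0.00253). Single libraries ended the calls of Aimp2 (any CKO_G641E library, CKO_K209A 1 or 3, 0.26 to 0.38), Hars2 (CKO_G641E 1 or 2, CKO_K209A 1 or 2, -0.29 to -0.23), Kars (CKO_G641E 1 or 3, CKO_K209A 3, 0.20 to 0.24), Mars (CKO_G641E 1, CKO_K209A 1 or 2, -0.35 to -0.33), Tars (CKO_G641E 3, CKO_K209A 1, 0.21 to 0.23) and Nars2 (7 of 15 leave-outs, -0.34 to -0.24). Scaled to recovered reads, 4513 genes were called higher and 2365 lower, against 2998 and 3252 as deposited, with a median of 0.13. There 12 cytosolic synthetases rose and 1 fell, 6 mitochondrial ones fell, and Mars (-0.22), Hars2 (-0.12), Nars2 (-0.20) and Vars2 (-0.38) were not called.

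In CKO_K209A relative to ff_GFP hearts 27 of 40 genes were called, against 47.7% of all genes, with 12 cytosolic synthetases and both scaffold genes higher, and 2 cytosolic and 11 mitochondrial synthetases lower. By group, 29 genes did not overlap, against 59.5% of all genes. The shares called higher and lower among all genes were 23.2% and 24.5%. The largest falls there were those of Aars2 (-1.26), Fars2 (-1.16) and Sars2 (-1.04), and Tarsl2 (-0.89) fell most among the cytosolic genes. Single libraries of these groups ended the calls of Cars (0.38 to 0.43), Iars2 (-0.31 to -0.24), Kars (0.22), Nars2 (-0.35 to -0.27), Qars (-0.17 to -0.16), Tars2 (-0.32 to -0.24) and Yars2 (-0.39 to -0.37). They were ff_GFP 2 for Kars, CKO_K209A 3 or ff_GFP 3 for Cars, CKO_K209A 1, CKO_K209A 2 or ff_GFP 1 for Yars2, and at least 4 libraries for each of the others. Scaled to recovered reads the median of all genes moved to 0.21, with 5625 higher and 2505 lower calls against 3547 and 3760 as deposited. There 16 cytosolic synthetases rose and 1 fell, 7 mitochondrial synthetases fell, and the value of Qars turned from -0.18 to 0.07 and was not called.

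**Figure D4:**
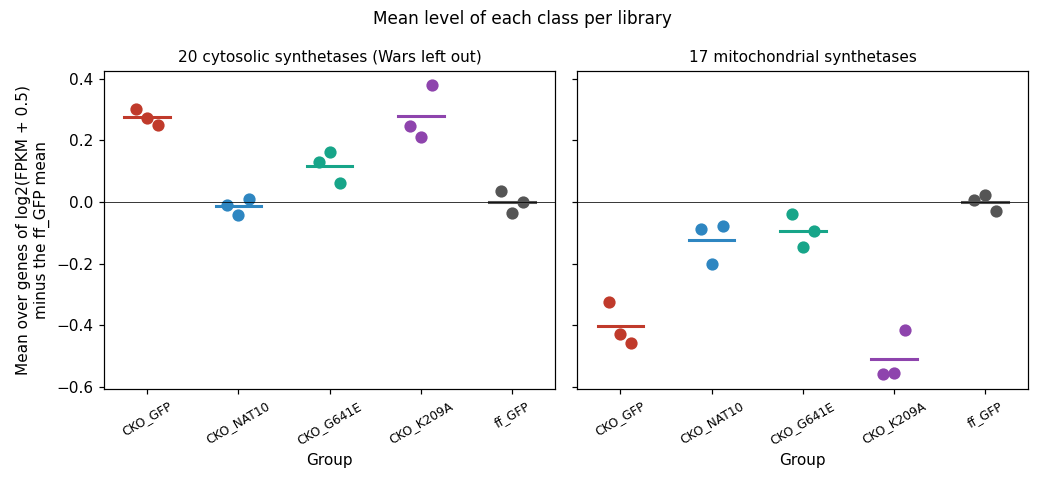
Mean over genes of log2(FPKM + 0.5) minus the ff_GFP mean, for each library (points) and group (lines), for 20 cytosolic synthetases without Wars (left) and 17 mitochondrial synthetases (right). CKO_GFP libraries lie at 0.25 to 0.30 and CKO_K209A libraries at 0.21 to 0.38 on the left, above all libraries of the other 3 groups, and both lie below all of these on the right.

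The per-library means show how far the sets moved together. Over the 20 cytosolic genes without Wars, the mean relative to ff_GFP was 0.30, 0.27 and 0.25 in CKO_GFP hearts, -0.01, -0.04 and 0.01 in CKO_NAT10 hearts, 0.13, 0.16 and 0.06 in CKO_G641E hearts and 0.25, 0.21 and 0.38 in CKO_K209A hearts. On the deposited scaling the CKO_G641E libraries lay above those of CKO_NAT10 and below those of CKO_GFP, without overlap. Whether this order holds when scaled to recovered reads was not tested. Over the 17 mitochondrial genes it was -0.32, -0.43 and -0.46 in CKO_GFP hearts, -0.09, -0.20 and -0.08 in CKO_NAT10 hearts, -0.04, -0.15 and -0.10 in CKO_G641E hearts and -0.56, -0.56 and -0.42 in CKO_K209A hearts, and here CKO_NAT10 and CKO_G641E libraries overlapped. These means over genes are descriptions and carry no test.

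The contrasts of CKO_GFP with ff_GFP and of CKO_K209A with CKO_NAT10 share no library, so their calls can be set against each other. All contrasts take the spread of each gene from the model of all libraries, so the calls are not independent. Of the 14 genes higher in the first and the 14 higher in the second, 12 were shared, or 85.7% of each list, against 69% and 67.2% of the calls among all genes. Of the 10 lower in the first and the 9 lower in the second, 8 were shared, or 80.0% and 88.9%, against 71.7% and 70.1% among all genes. None of the 40 genes was called in opposite directions, against 20 of all genes called higher in the first and lower in the second and 11 the other way. Whether the family shares more calls than other genes was not tested. Aars, Cars, Qars and Nars2 were called in the first contrast and not in the second, and Iars, Aimp2 and Yars2 in the second and not in the first. Against CKO_K209A relative to CKO_G641E hearts, 10 higher genes (71.4% and 90.9%) and 9 lower genes (90.0% and 81.8%) were shared, and again 0 were opposite. Among all genes these shares were 67.7% and 68.5% of the higher and 71.5% and 69.9% of the lower calls.

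Wars stood out by single libraries rather than by group. It had 46.5, 19.98 and 20.6 FPKM in CKO_GFP hearts, 18.04, 152 and 22.5 FPKM in CKO_NAT10 hearts, 24.3, 70.3 and 20.6 FPKM in CKO_G641E hearts, 17.9, 17.1 and 19.2 FPKM in CKO_K209A hearts, and 19.9, 17.9 and 22.1 FPKM in ff_GFP hearts. CKO_GFP 1, CKO_NAT10 2 and CKO_G641E 2 were high and the other 12 libraries lay between 17.1 and 24.3 FPKM. Wars is known to be induced by interferon, and the same 3 libraries had the highest mean log2 level of 20 interferon-stimulated genes, at 4.22, 4.25 and 4.67, against 0.82 to 3.19 in the other 12. It was called in none of the 10 comparisons. In CKO_GFP relative to ff_GFP hearts its change was 0.42 ± 0.66 (adjusted p = 0.646) with all libraries and 0.03 without these 3, a set chosen after the data were seen. Without them Aars (0.25), Cars (0.33) and Tars (0.20) lost their calls in that contrast, and Wars2 (-0.48) and Yars2 (-0.40) gained one.

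**Figure D5:**
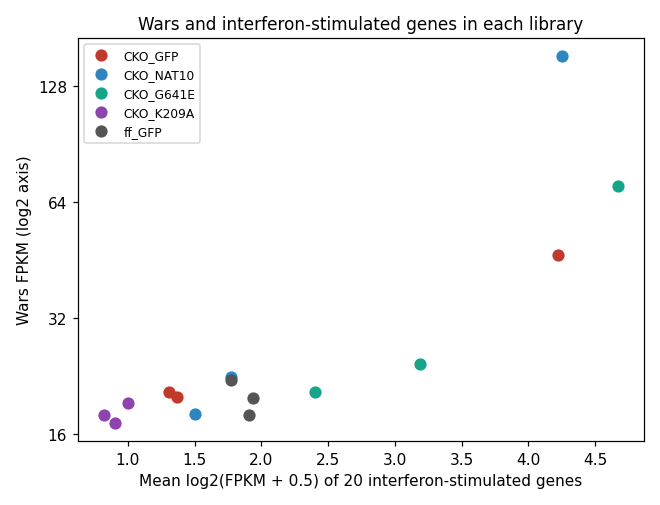
Wars level in FPKM on a log2 axis against the mean log2(FPKM + 0.5) of 20 interferon-stimulated genes, 1 point per library, coloured by group. The 3 points above 40 FPKM, of CKO_NAT10, CKO_G641E and CKO_GFP, are also the 3 furthest to the right.

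Other genes of the same pathways were read beside the family. Of 12 cytosolic synthetases known as targets of ATF4, 8 rose and 0 fell in CKO_GFP relative to ff_GFP hearts (median 0.39), against 5 higher and 2 lower of the 9 other cytosolic synthetases (median 0.33). In CKO_G641E relative to CKO_GFP hearts 3 of the 12 fell, against 5 of the other 9. In CKO_G641E relative to CKO_NAT10 hearts 8 of the 12 and 2 of the other 9 did not overlap, and none was called. The difference between these 2 lists was not tested.

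Of 25 tested genes of the ATF4 response outside the family, 16 rose and 1 fell in CKO_GFP relative to ff_GFP hearts, with a median of 0.80. Ppp1r15a, the phosphatase subunit that ends the stress response, had 27.7, 48.2 and 37.0 FPKM in CKO_GFP hearts, against 4.19, 6.56 and 6.10 FPKM in ff_GFP hearts, and rose by 2.63 ± 0.20 (adjusted p = 5.53e-07). Slc7a5 and Slc3a2, the chains of a carrier of large amino acids, rose by 2.20 ± 0.20 (adjusted p = 2.24e-06) and 1.44 ± 0.13 (adjusted p = 3.21e-06). Atf4 itself rose by 0.60 ± 0.09 (adjusted p = 9.81e-05). In CKO_NAT10 relative to CKO_GFP hearts 12 of the 25 fell and 1 rose, in CKO_G641E relative to CKO_GFP hearts 9 fell and 2 rose, and in CKO_K209A relative to CKO_GFP hearts 1 rose, Atf4. Asns, the enzyme that makes asparagine, was one of the 2 that rose with NAT10G641E, with 5.13, 6.06 and 4.89 FPKM in CKO_G641E hearts, against 5.53, 1.56 and 1.32 FPKM in CKO_GFP hearts, where CKO_GFP 1 stood apart. Relative to ff_GFP hearts, Atf3 (2.90), Mthfd2 (1.92), Asns (1.71), Phgdh (1.53), Slc7a5 (1.23), Psat1 (1.01) and Ppp1r15a (0.87) were called higher in CKO_G641E hearts. Sesn2 (1.07) was called higher in CKO_NAT10 relative to ff_GFP hearts. No other gene of the 25 was called in these contrasts, where 0.627% and 0.79% of all genes were called higher.

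Most of the listed factors of mitochondrial translation and transcription fell alongside the mitochondrial synthetases. Of 13 mitochondrial translation and transcription factors, 12 fell and 0 rose in CKO_GFP relative to ff_GFP hearts, with a median of -0.64. Tufm, the factor that carries charged tRNA to the mitochondrial ribosome, had 76.3, 62.6 and 58.9 FPKM in CKO_GFP hearts, against 136.5, 142.9 and 145.0 FPKM in ff_GFP hearts, and fell by 1.10 on the log2 scale (SE 0.10, adjusted p = 2.16e-06). Gfm1, a translocase of that ribosome, fell by 0.72 (SE 0.06, adjusted p = 1.09e-06). In CKO_NAT10 relative to CKO_GFP hearts 8 of the 13 rose, in CKO_G641E relative to CKO_GFP hearts 10 rose, and in CKO_K209A relative to CKO_GFP hearts 0 were called by limma.

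Most of the cytosolic elongation factors rose, while the isoforms Eef1a1 and Eef1a2 moved in opposite directions. Of 7 factors tested, 5 rose and 1 fell in CKO_GFP relative to ff_GFP hearts. Eef1a1, the widely expressed carrier of charged tRNA, rose by 0.77 ± 0.09 (adjusted p = 1.43e-05), and Eef1a2, its form in adult muscle, fell by 1.00 on the log2 scale (SE 0.16, adjusted p = 0.000318). Among 14 tested partners of tRNA charging, 4 rose and 3 fell. Qrsl1, a subunit of the enzyme that makes glutamine tRNA in mitochondria, which have no synthetase for it, fell by 0.81 on the log2 scale (SE 0.09, adjusted p = 1.86e-05). The other subunits of that enzyme, Gatb (-0.16, adjusted p = 0.283) and Gatc (-0.14, adjusted p = 0.273), were not called.

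Cardiomyocyte, fibroblast and endothelial markers moved with the same groups, while the macrophage sums of CKO_K209A hearts overlapped those of ff_GFP hearts. Of 6 cardiomyocyte markers, 5 fell and 0 rose in CKO_GFP relative to ff_GFP hearts, and their summed level was 3964 to 4859 FPKM in CKO_GFP, 6504 to 7413 in CKO_NAT10, 6790 to 8080 in CKO_G641E, 3162 to 3661 in CKO_K209A and 7816 to 9613 in ff_GFP hearts. Of 6 fibroblast markers 4 rose and 0 fell, with sums of 517 to 725 FPKM in CKO_GFP, 437 to 468 in CKO_NAT10, 397 to 439 in CKO_G641E, 602 to 655 in CKO_K209A and 347 to 392 in ff_GFP hearts. Of 6 endothelial markers 4 fell, with sums of 240 to 291 FPKM in CKO_GFP, 335 to 370 in CKO_NAT10, 311 to 336 in CKO_G641E, 238 to 261 in CKO_K209A and 325 to 338 in ff_GFP hearts. Of 6 macrophage markers 3 rose, with sums of 66.0 to 113 FPKM in CKO_GFP, 48.6 to 62.7 in CKO_NAT10, 43.4 to 91.6 in CKO_G641E, 47.7 to 51.9 in CKO_K209A and 48.0 to 58.5 in ff_GFP hearts. Of 5 mural markers 1 rose and 2 fell, and 0 of 5 erythroid markers and 0 of the 2 tested lymphocyte markers were called by limma. None of the listed markers was at 0 in all libraries. The part of cell composition in the changes of the synthetase genes was not tested.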

How the data were processed

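Poly-A RNA of mouse heart was sequenced as read pairs of 150 bases, 15 libraries in 5 groups of 3. Per the submitters' processing notes, CASAVA, HISAT2 2.0.5, featureCounts 1.5.0-p3 and DESeq2 1.20.0 are named, with no roles, beside the build GRCm38 (mm10), and the step that made FPKM is not given in the sources used here. The values deposited by the authors are FPKM, with gene lengths, coordinates and symbols in the same table. Multiplied by gene length, 100% of values came out as whole reads, within 0.05 reads, and the library sizes implied by the FPKM were 0.908 to 1.13 times the recovered reads, so the deposited scaling is not by these reads.

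The tests are those of limma 3.58.1 with a trended prior, run in R 4.3.3 on log2(FPKM + 0.5). The filter kept genes that reached 0.5 FPKM in 3 libraries or more, and 1 model of 5 groups had 10 residual degrees of freedom. P-values are two-sided, adjusted over 15321 genes within each of 10 comparisons. The procedure was tested on simulated data. The genes, lists and tests were chosen with earlier results of these data known. Named genes were a panel of 17, plus the called genes with the largest changes in each comparison; other genes of the family are named to account for all of them or where a count was small, after their values were seen. Alternatives were other pseudocounts (0.1 and 1), filters (none, 1 FPKM), scalings (recovered reads, quantile), voom on recovered reads, the 2 groups alone, a replicate block and leaving out libraries. Some items, counted in the totals, are not reported here.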

Additional observations from a re-analysis of the deposited data

How the results depend on the processing

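The counts of called genes kept within 1.5 times their value in all 10 comparisons under other pseudocounts and filters. With only the 2 groups compared in the model, 11 genes (against 22) were called in CKO_NAT10 minus CKO_GFP, 10 (against 18) in CKO_G641E minus CKO_GFP and 0 (against 1) in CKO_K209A minus CKO_GFP, where fewer libraries estimate the spread. Quantile normalization gave 2 in the last of these. For CKO_G641E minus ff_GFP (2 genes), voom on recovered reads gave 1, as did leaving out the 3 libraries high in interferon-stimulated genes, a setting added after the data were seen. The replicate numbers were not treated as pairs in the main model. Of 30 pairs with a common number, 3 had a correlation of deviations above 0.1 (range -0.15 to 0.36). Pairs with different numbers were not set beside these, so the check cannot exclude a pairing. A replicate block gave 1 gene in CKO_G641E minus ff_GFP, 24 in CKO_GFP minus ff_GFP and 22 in CKO_NAT10 minus CKO_GFP, the last 2 counts as without it, although Yars2 lost and Vars2 gained a call in CKO_NAT10 minus CKO_GFP.

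Leaving out each library in turn gave 21 to 25 called genes in CKO_GFP minus ff_GFP, 15 to 22 in CKO_NAT10 minus CKO_GFP, 13 to 23 in CKO_G641E minus CKO_GFP, 0 to 2 in CKO_K209A minus CKO_GFP, 0 to 0 in CKO_G641E minus CKO_NAT10, 21 to 25 in CKO_K209A minus CKO_NAT10, 17 to 22 in CKO_K209A minus CKO_G641E, 0 to 0 in CKO_NAT10 minus ff_GFP, 1 to 3 in CKO_G641E minus ff_GFP and 22 to 28 in CKO_K209A minus ff_GFP. Over the named genes and all settings, 121 of 6000 values lost a call, 33 gained one and 0 called values changed sign. Qars, outside that set, changed sign in CKO_K209A minus ff_GFP when scaled to recovered reads, to 0.07.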
